A study of Homo sapiens with 35 samples.

Results

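The genes described here are 10 cyclins and cyclin-dependent kinases of the cell cycle, taken by name from 19974 protein-coding genes: the D-type cyclins CCND1, CCND2 and CCND3 with their kinases CDK4 and CDK6, the E-type cyclins CCNE1 and CCNE2 with their kinase CDK2, and the cyclins CCNA2 and CCNB1. The first 8 are called G1 members here and the last 2 S and M members. Open chromatin around them was read from ATAC-seq, in which a transposase cuts accessible DNA, of hematopoietic progenitors grown from H1, a widely used embryonic stem cell line of human origin. The labels describe 35 libraries, where the design text counts 44. Of these, 12 are doxycycline-treated (DOX) and 11 untreated (UT) doxee17 cells, which the labels place in batch 1, and 12 are untreated H1 cells in batch 2, on 6 days from day 10 to day 20, in 18 groups of 1 to 3 libraries. The series concerns ectopic MYC, with or without doxycycline. The labels name neither the promoter that drives MYC nor whether doxee17 is 1 clone. All values come from a single pooled list of 308732 peaks that names no library, so no value can be assigned to a treatment, day or line, there is no replicate error and no test was made. In such a pool, a site open in few cells and a site weakly open in many cannot be told apart.

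A cyclin binds and switches on a cyclin-dependent kinase, and the order in which cyclins appear carries a cell through its division. D-type cyclins respond to growth factors and, with CDK4 or CDK6, begin to phosphorylate the retinoblastoma protein in G1. Cyclin E with CDK2 takes the cell into S phase, cyclin A acts in S phase and G2, and cyclin B starts mitosis. CDK6 and cyclin D3 are known for their roles in blood cell formation, and CCND2 and CDK4 are commonly described targets of MYC.

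Promoter sequences are shown for the 4 members whose 250 bases before the annotated start lay outside every RefSeq gene and wholly under a peak, so that the letters beneath their start-site peaks can be read beside the values. They come from RefSeq (GRCh38.p14) and run 5′ to 3′ up to the base before the start. Capitals mark 3 motifs on either strand: CACGTG, the E-box to which MYC and MAX bind, CCAAT, the site of NF-Y (ATTGG on the opposite strand), and the GC box GGGCGG of SP1-type factors, which reads CCGCCC on the opposite strand.
CDK4, chr12:57752311-57752560, minus strand: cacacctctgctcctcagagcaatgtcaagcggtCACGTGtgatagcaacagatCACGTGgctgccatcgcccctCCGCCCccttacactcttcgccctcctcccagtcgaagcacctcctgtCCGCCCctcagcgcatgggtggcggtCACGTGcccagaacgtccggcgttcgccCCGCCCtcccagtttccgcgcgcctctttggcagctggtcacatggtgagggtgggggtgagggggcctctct
CCNB1, chr5:69166900-69167149, plus strand: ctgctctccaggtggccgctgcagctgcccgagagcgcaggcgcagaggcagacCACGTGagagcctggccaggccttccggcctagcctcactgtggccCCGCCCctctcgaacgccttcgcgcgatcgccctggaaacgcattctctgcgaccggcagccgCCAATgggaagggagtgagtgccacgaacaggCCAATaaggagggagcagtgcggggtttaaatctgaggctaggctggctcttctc
CCNA2, chr4:121823884-121824133, minus strand: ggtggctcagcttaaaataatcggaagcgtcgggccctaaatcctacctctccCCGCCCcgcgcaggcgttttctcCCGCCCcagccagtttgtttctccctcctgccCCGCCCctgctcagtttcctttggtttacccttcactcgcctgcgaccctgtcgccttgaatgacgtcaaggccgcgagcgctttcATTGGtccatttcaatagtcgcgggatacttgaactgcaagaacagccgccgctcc
CCNE1, chr19:29811741-29811990, plus strand: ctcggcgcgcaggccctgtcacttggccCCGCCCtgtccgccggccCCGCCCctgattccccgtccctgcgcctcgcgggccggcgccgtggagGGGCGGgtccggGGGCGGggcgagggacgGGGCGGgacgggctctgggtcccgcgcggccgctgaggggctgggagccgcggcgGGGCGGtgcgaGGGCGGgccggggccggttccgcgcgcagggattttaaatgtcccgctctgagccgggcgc

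The CDK4 sequence held 3 E-boxes, starting 216, 196 and 101 bases before the start, and the summit of its peak lay 162 bases before the start, between the second and the third of them. The CCNB1 sequence held 1 E-box, 196 bases before the start, and 2 CCAAT boxes, at 87 and 55 bases. The CCNA2 sequence held 1 CCAAT box at 56 bases and 3 GC boxes, and CCNE1 held 7 GC boxes and neither of the other motifs. The promoter table has 6 of the 10 members (CCND3 with 3 starts and CDK6 with 2, 9 promoters in all); CCND1, CCND2, CCNE2 and CDK2 have no entry. Of the 9 promoters, 2 held an E-box, 4 a CCAAT box and 7 a GC box, against 7.37%, 32.7% and 53.7% of 22132 promoters of coding genes of the same length. Promoters with 3 or more E-boxes, as at CDK4, made up 0.113% of them (25 promoters). Across all these promoters, the median fold of the peak at the start was 49.2 with no E-box, 74.4 with 1, 90.03 with 2 and 75.2 with 3 or more. Also searched on both strands were the E2F motifs (TTTCGCGC or TTTGGCGC), the cell cycle homology region with TTTGAA, the TATA box with TATAAA and the GATA factor motif with AGATAA, and none of the 9 windows held these letters (1.27%, 11.0%, 9.00% and 7.08% of all promoters did). Variant spellings of these motifs and bases past the start were not searched, so such sites may still be present. No match of 1 motif overlapped a match of another, and GC content was high at CCNE1 (81.2%) and the outer CDK6 start (80.0%) and lower at CCNA2 (58.8%), around a median of 62% over all promoters.

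Every member had its start site under a peak. Fold enrichment, the authors' ratio of signal at a peak's highest point to a background that is the same for the whole genome, ranged for these start-site peaks from 24.4 at CCND1 to 247 at CDK4, with a median of 104. Of 15817 coding genes with a known strand, 12461 (78.8%) had a start under a peak, and the median, with 0 for the rest, was 55.7 (quartiles 3.80 and 118.9). CCND1 lay below that median and the other 9 above it, and CCND3, CDK4 and CCNB1 lay above the upper quartile.

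**Figure D1:**
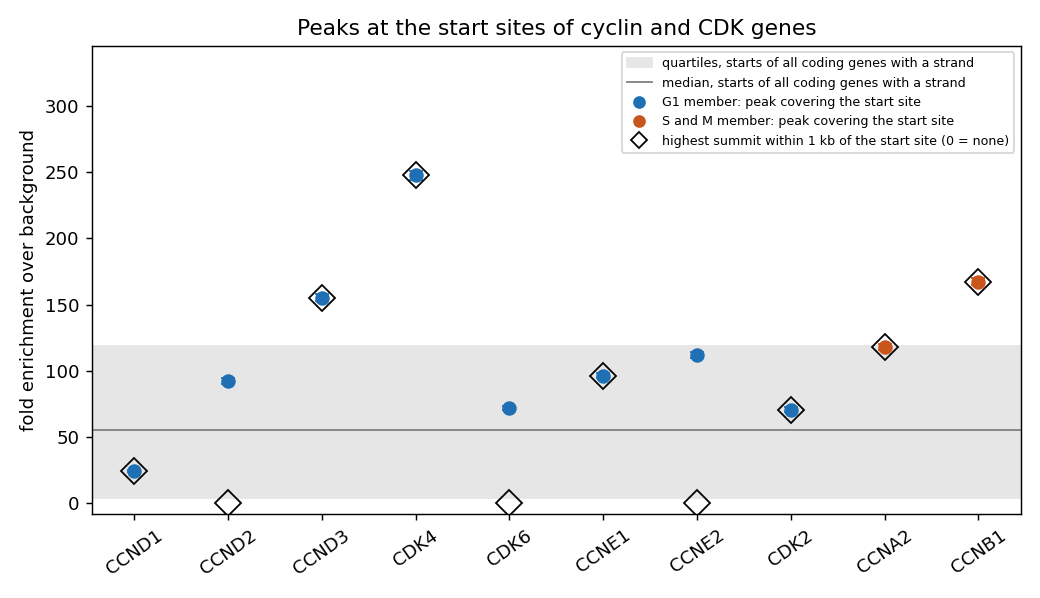
Fold enrichment (linear axis) of the peak that covers the start site of each of the 10 genes, as points with exact Poisson 95% intervals that cover counting error only; open diamonds are the highest summit within 1 kb of the start, and the grey band and line are the quartiles and the median for 15817 coding genes. CDK4 stands highest at 247, and CCND2, CDK6 and CCNE2 have a covering peak but a diamond at 0, since their summits lie more than 1 kb away.

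A peak's summit is its highest position, and a peak was tied to a gene when its summit lay within 1 kb of either end. By that measure 9 of 10 members had a peak (83% of coding genes did), 4 reached 100-fold or more (29.2% of coding genes) and the median was 83.5, against 43.5 for all coding genes. Above the coding median stood 6 of 10, where 50% of coding genes stand by its definition. The 4 at 100-fold were CDK4 (247), CCNB1 (167), CCND3 (155) and CCNA2 (118). CDK4 exceeded 97.4% of coding genes, CCNB1 88.6%, CCND3 86.1% and CCNA2 76.9%. CCNE1 (96.2), CDK2 (70.8) and CCND1 (24.4) followed, and CCND2 and CDK6 had only a weak peak of 1.76 each at the 3′ end. CCNE2 had none, because its summit lay 1016 bp from the start, 16 bp outside the limit; the member nearest inside the limit was CCND3, at 631 bp. Counting error does not order every neighbour: the intervals of CCNE2 (110 to 114) and CCNA2 (116 to 119.9) did not overlap, whereas those of CDK2 (69.1 to 72.5) and CDK6 (70.2 to 73.7) did. Error between cultures is unknown for all of them.

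The D-type cyclins differed in where their open chromatin lay. CCND1 (chromosome 11, 69641156 to 69654474, plus strand) had 4 peaks over or at it. A 24.4-fold peak of 1267 bp (69640447 to 69641713) had its summit 1 bp from the start, and a higher one of 47.4-fold (46.02 to 48.8) followed inside the gene, 2236 bp from the start (69642003 to 69643934). The highest peak within 100 kb of CCND1 was that at an end of the neighbour LTO1 (102-fold). CCND1 is the weakest member by the start-site peak and by the highest peak over the gene, where it exceeded 42.2% of coding genes.

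CCND2 (chromosome 12, 4273762 to 4305353, plus strand) had its start inside a peak of 8980 bp (4268416 to 4277395, 92.3-fold). The summit lay 1641 bp before the start, within CCND2-AS1, a non-coding gene that runs on from there across the start. A further peak of 4814 bp and 52.9-fold lay inside the gene, 15.8 kb from the start (4285359 to 4290172), and a 40.8-fold peak lay 2.63 kb past the 3′ end. In all 11 summits lay inside the gene beyond 1 kb of its ends, 9 of them under 5-fold, and peaks covered 47.4% of it, the most of any member and more than in 86.9% of coding genes.

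CCND3 (chromosome 6, 41934933 to 42050035, minus strand) had peaks of almost the same height at both sides of the gene. At the gene's outer edge (42050035), taken here as the outer start, stood a 155-fold peak of 3294 bp (42047846 to 42051139). Its summit lay 631 bp before that edge, inside the neighbour TAF8 and within 1 kb of an end of it. This peak thus belongs to both genes by the rule. In the promoter table the outermost CCND3 start is instead 42048688, also under this peak, and the summit lay more than 1 kb before that start. The tie of this peak to CCND3 therefore rests on the gene edge. Near the 3′ end, a peak of 13053 bp and 154-fold (41929793 to 41942845), the widest over any member, covered the gene's other 2 annotated starts in the promoter table (41941808 and 41939205). The intervals of these peaks overlapped (152.7 to 157.8 and 151 to 156). Between them stood inner peaks of 88.9-fold (42016018 to 42018347), 78.1-fold (6922 bp, 42024984 to 42031905) and 73.1-fold (42043582 to 42047629). Of 28 summits inside the gene, 6 reached 20-fold.

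The kinases of the D-type cyclins stood at opposite ends of the range in form. CDK4 (chromosome 12, 57747727 to 57752310, minus strand) is a short gene with 1 peak of 2292 bp and no summit inside. That peak (57750866 to 57753157, 247-fold, interval 244 to 250.5) is the one above the 3 E-boxes. CDK6 (chromosome 7, 92604921 to 92836573, minus strand) is 231653 bp long and held 62 inner summits, 2.68 per 10 kb, a density above that of 84.2% of coding genes. Its highest peak (71.9-fold, 5932 bp, 92831715 to 92837646) covered both of its annotated starts, which are at 92836573 and 92833959, and its summit lay 26 bp inside the gene from the inner start. Deeper in CDK6, a 59.98-fold peak lay 81.3 kb from the outer start (92754372 to 92756708), and peaks of 31.1, 28.5 and 26.5-fold lay at 215, 203 and 26.7 kb. Of the 62 inner summits, 7 reached 20-fold and 42 lay under 5-fold.

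The genes of the G1 to S transition each had 1 strong peak over the start. CCNE1 (chromosome 19, 29811991 to 29824312, plus strand) had a 96.2-fold peak of 2888 bp with its summit 159 bp before the start (29810458 to 29813345) and only a 4.63-fold peak inside. CCNE2 (chromosome 8, 94880224 to 94896693, minus strand) had a 112-fold peak of 3845 bp (94893390 to 94897234), whose summit lay inside CCNE2 and within 1 kb of an end of NDUFAF6, so it is not particular to CCNE2. CDK2 (chromosome 12, 55966830 to 55972789, plus strand) had a 70.8-fold peak of 1720 bp (55965906 to 55967625), with its summit 33 bp before the start and also within 1 kb of an end of PMEL, a pigment cell gene. The highest peak near any member was that of the neighbour RAB5B (384-fold), 1019 bp past the 3′ end of CDK2, which overlapped the last bases of CDK2.

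Each of the S and M members had 1 strong start-site peak and little else over the gene. CCNA2 (chromosome 4, 121816444 to 121823883, minus strand) had a 118-fold peak of 1892 bp (121822578 to 121824469) with its summit 97 bp before the start, also within 1 kb of an end of BBS7. Its 3 further summits, of 1.47 to 1.56-fold, are near the lowest fold in the list (1.32). CCNB1 (chromosome 5, 69167150 to 69178245, plus strand) had a 167-fold peak of 1595 bp (69166554 to 69168148), 105 bp before the start, and no other summit over the gene, of which 9.00% was covered.

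**Figure D2:**
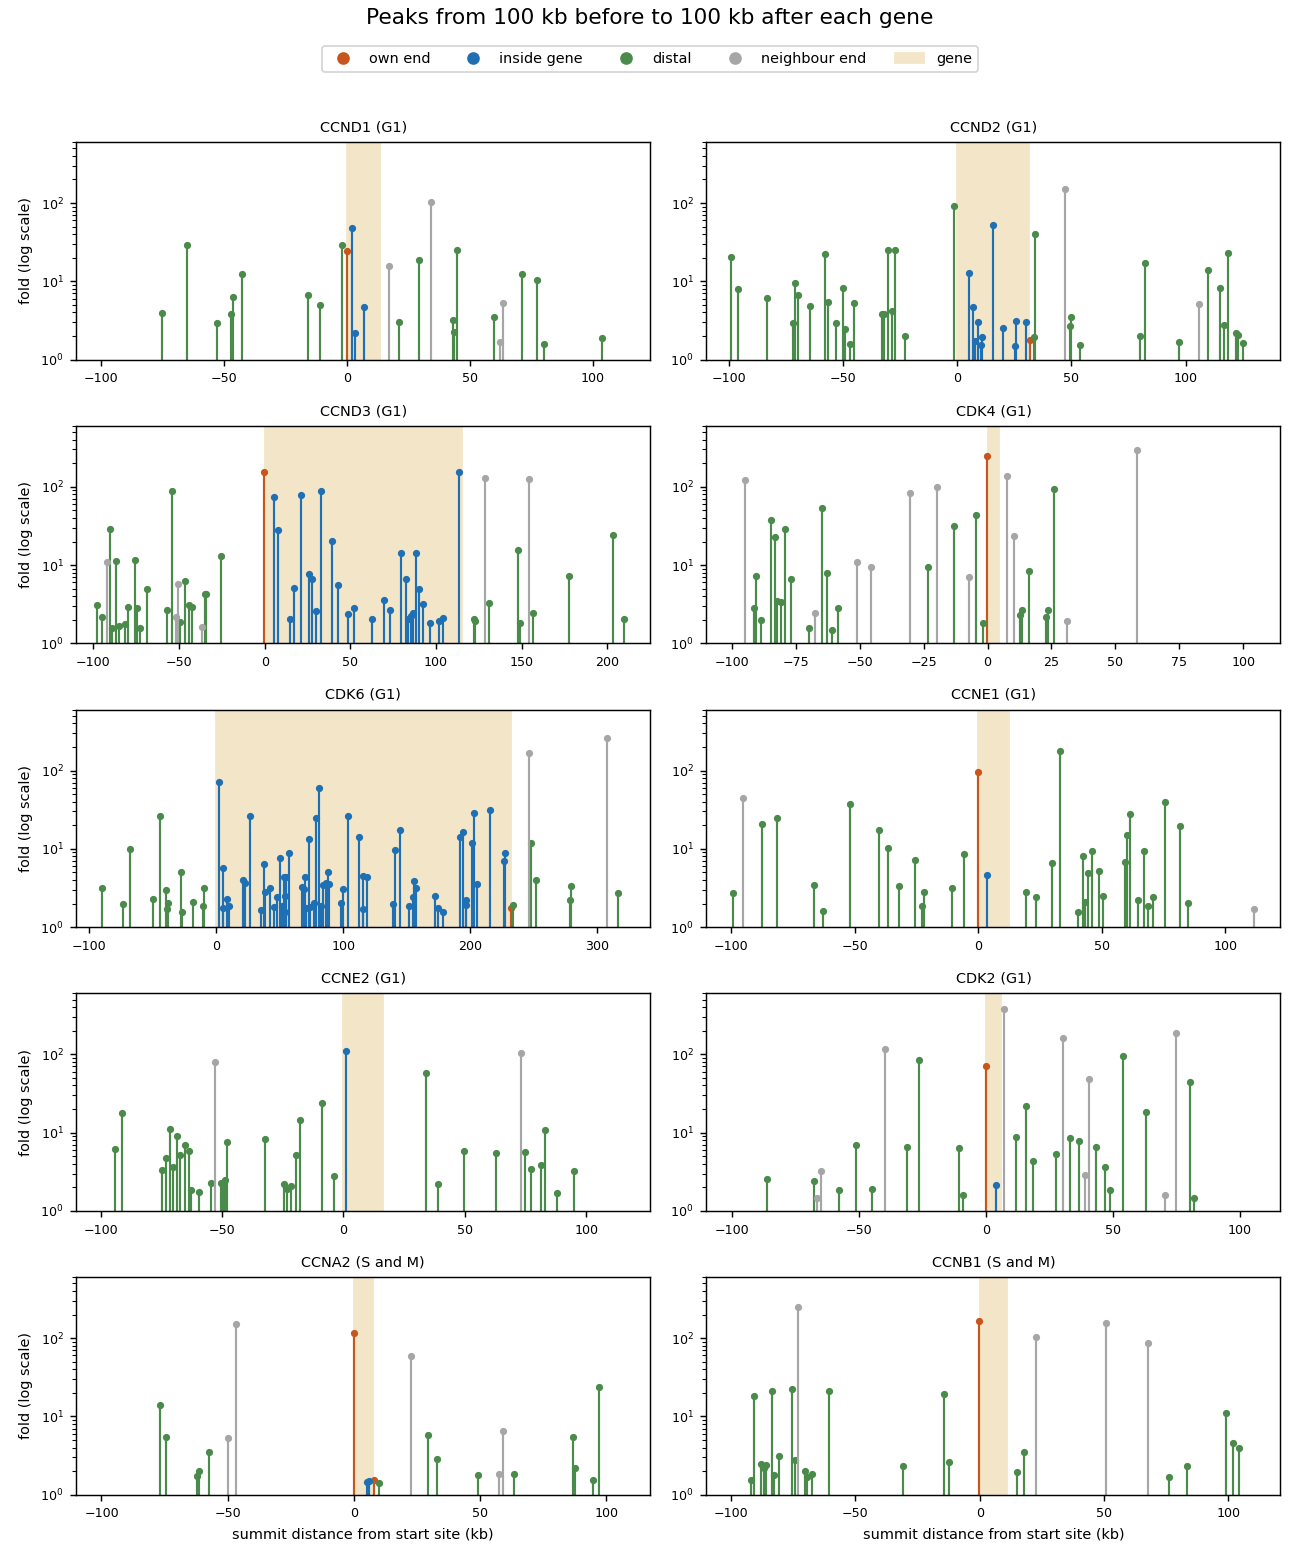
Each panel shows 1 gene with every peak from 100 kb before its start to 100 kb after its end: the x axis is the distance of the summit from the start site in kb in the direction of transcription, the y axis is fold enrichment on a log scale, and the shaded span is the gene. Peaks are orange at the gene's own ends, blue inside it, green where distal and grey at ends of neighbouring coding genes. CCNA2 and CCNB1 have 1 tall peak at the start, whereas CCND3 and CDK6 have 28 and 62 summits inside the gene beyond 1 kb of its ends.

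G1 members were lower than S and M members at gene ends by the summit rule. The median of the 8 was 47.6 and that of the 2 was 142, a difference of -94.8. The groups overlapped: CDK4 and CCND3 stood above CCNA2, and CDK4 above CCNB1 too. The size of the difference rests on the summit rule, since it was -38.5 when any overlap with the 1 kb window counted or when the window was 2.5 kb. With both of these settings, CDK2 takes the value of the RAB5B peak. For the highest peak over the whole gene, with its summit in the gene or within 1 kb of it, the difference was -58.4. Peaks that cover the start site, wherever their summit, had medians of 94.2 in G1 and 142 in S and M members. Among summits in the gene or within 1 kb of it, the highest lay inside, beyond 1 kb of both ends, in 4 of 8 G1 members (CCND1, CCND2, CDK6 and CCNE2). That was so for 0 of 2 S and M members and 28.8% of coding genes, and 1 of the 4 is CCNE2 at 16 bp past the limit. In CDK6 and CCNE2 this inner peak is the one that covers the start. CCND2 has a higher peak over its start (92.3-fold), left out because its summit lies outside the gene, 1641 bp before the start. Start-site peaks were 1267 to 8980 bp wide in G1 members (median 3091) and 1595 and 1892 bp in S and M members. The narrowest was that of CCND1, and the median width of all peaks at coding gene ends was 1460.5 bp. With 2 genes in 1 group and no replicate libraries, none of these differences was tested.

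Distal peaks were taken as summits outside the gene, within 100 kb of an end and more than 1 kb from every end of a coding gene. The 424 peaks in the windows of the members comprised 10 at their own ends, 109 inside them, 258 distal and 47 at ends of neighbours, and no peak was shared between members. Distal counts ran from 14 at CCNA2 to 36 at CCND2, with a median of 24 against 29 for coding genes (quartiles 18 and 39). None of the 10 reached the upper quartile (25.8% of coding genes did), and CCNA2 alone lay at or below the lower quartile (26.3%). CCND2 (36), CCNE1 and CCNE2 (35 each) and CCND3 (30) were above the median, followed by CDK4 and CCNB1 (24 each), CDK2 (22) and CCND1 and CDK6 (19 each). The share of distal peaks under 5-fold was 57.4%, and 14.3% reached 20-fold; over all peaks away from coding ends these shares were 64.4% and 9.12%.

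**Figure D3:**
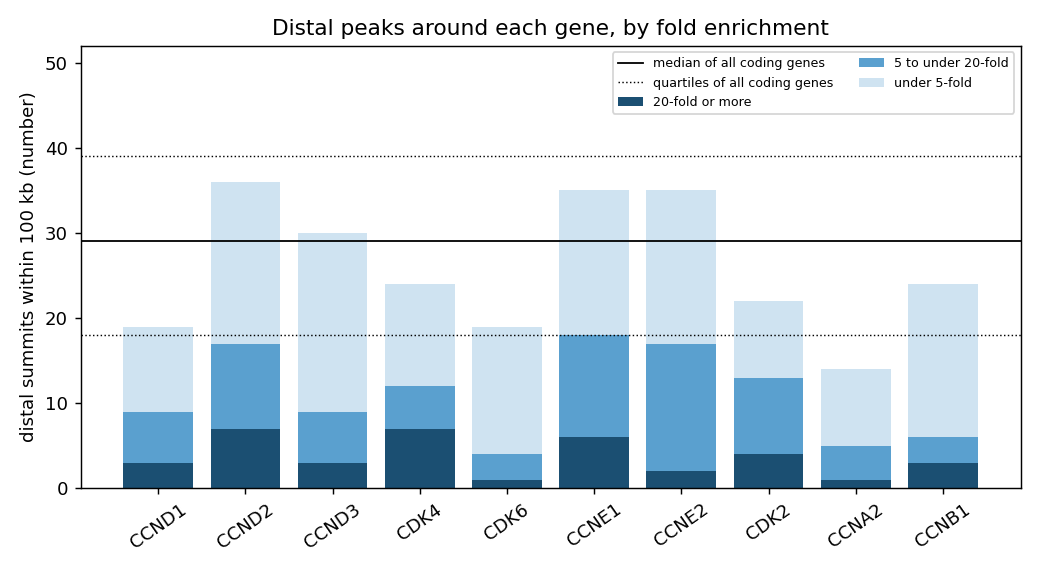
Bars give the number of distal summits within 100 kb of each gene, split into 20-fold or more, 5 to under 20-fold and under 5-fold, with the median (29) and quartiles (18 and 39) of all coding genes as lines. All 10 bars stay under the upper quartile, and CCND2 and CDK4 have the most peaks of 20-fold or more, 7 each.

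By number of distal peaks of at least 20-fold, CCND2 and CDK4 had 7, CCNE1 6, CDK2 4, CCND1, CCND3 and CCNB1 3, CCNE2 2 and CDK6 and CCNA2 1, where coding genes had a median of 3 (quartiles 1 and 5). The strongest lay beside CCNE1: a 176-fold peak of 3395 bp (chromosome 19, 29842754 to 29846148), in intergenic sequence 20.6 kb past the 3′ end. It exceeded the CCNE1 start-site peak (interval 174 to 179 against 94.3 to 98.2) and ranked 393 among 286635 peaks away from coding ends, in the top 0.137%. The next distal peaks around CCNE1 were 39.9-fold, 63.4 kb past the 3′ end (29886542 to 29888124), and 37.4-fold, 51.8 kb before the start (29759815 to 29760675).

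Around CDK2, a 95.3-fold peak lay 48.2 kb past the 3′ end inside IKZF4, a gene of the Ikaros family (56019656 to 56022943), an 84.2-fold peak lay inside DGKA 26.4 kb before the start (55939890 to 55940814) and a 44.3-fold peak 74.5 kb past the 3′ end (56045249 to 56047748). Around CDK4 the highest were 92.9-fold in AGAP2 (57721854 to 57728186), 54.3-fold in AVIL and 44.04-fold in MARCHF9, 4.63 kb before the start. All 7 distal peaks of at least 20-fold around CDK4 lay inside other coding genes, of which its window holds 10. Around CCND3 the highest was 88.6-fold, 54.4 kb before the outer start in C6orf132 (42103822 to 42106430), followed by 28.5-fold in that gene and 24.3-fold in USP49.

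CCND1 and CCND2 had their strong distal peaks in intergenic sequence or non-coding genes. Around CCND1 they were 29.1-fold at 64.9 kb before the start (69575529 to 69576789), 29.0-fold at 2.00 kb before it (69635928 to 69639571) and 25.3-fold at 31.5 kb past the 3′ end (69685701 to 69686323), with overlapping intervals for the first 2. At CCND2 the peak over the start was itself counted as distal by its summit, and 25.5-fold (4245752 to 4246729) and 24.9-fold peaks lay 27.4 and 30.4 kb before the start. CCNE2 had a 57.4-fold peak inside INTS8, 17.6 kb past its 3′ end (94862078 to 94863914), then 23.6-fold and 17.7-fold peaks inside NDUFAF6. CDK6, with 62 inner peaks, had 25.9-fold as its highest distal value, inside CDK6-AS1 43.8 kb before the outer start (92880098 to 92880896), and the next were 11.9 and 9.94-fold.

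Distal peaks around the S and M members were low. The highest was 23.8-fold for CCNA2, 89.6 kb past the 3′ end (121726026 to 121727262), with 14.05 and 5.76-fold next. For CCNB1 the 3 highest were 22.4-fold at 75.7 kb before the start, 21.3-fold at 83.5 kb and 21.2-fold inside SLC30A5 at 60.8 kb. Highest distal values of G1 members ranged from 25.9 to 176 with a median of 90.4. All 8 thus exceeded both S and M members, as 78.6% of coding genes did, whose median was 50.8 (quartiles 26.8 and 93.9), and CDK6 (25.9) was close to CCNA2. The value of CCND2 in this median (92.3) is the peak over its own start; without peaks that overlap the gene it was 40.8, and the G1 median was 73.03. The median number of distal peaks was 27 for G1 and 19 for S and M members, a difference of 8, and the groups overlapped, since CCND1, CDK6 and CDK2 had fewer than CCNB1. CDK7, which encodes the kinase that activates other CDKs, lies within 100 kb of CCNB1.

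Other genes of the cell cycle give the range around the members. The 18 S phase genes, which copy DNA, had a median of 131 at gene ends, and 15 had a summit there, against 83% of coding genes. MCM3 (274) and PCNA (258) were highest, and CDT1, ORC1 and RRM2 had no summit at an end. Peaks covered 100% of CDT1, and ORC1 and RRM2 had peaks of 105 and 8.31-fold inside. The 20 M phase genes had a median of 107, from none at CCNB3 (31.7 inside it) and 54.3 at AURKB to 204 at AURKA and 228 at CENPA. G1 members were lower than the S phase list by 83.1 and than the M phase list by 59.8 in median fold (differences of -83.1 and -59.8). With any overlap counted these became -26.8 and -3.46. At or above 100-fold stood 12 of 18 S phase, 11 of 20 M phase and 2 of 8 G1 genes, against 29.2% of coding genes. In median distal peaks the S phase list had 37.5 and the M phase list 32, G1 members being lower by 10.5 and 5 (-10.5 and -5); among peaks of at least 5-fold these differences were -0.5 and 1.

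**Figure D4:**
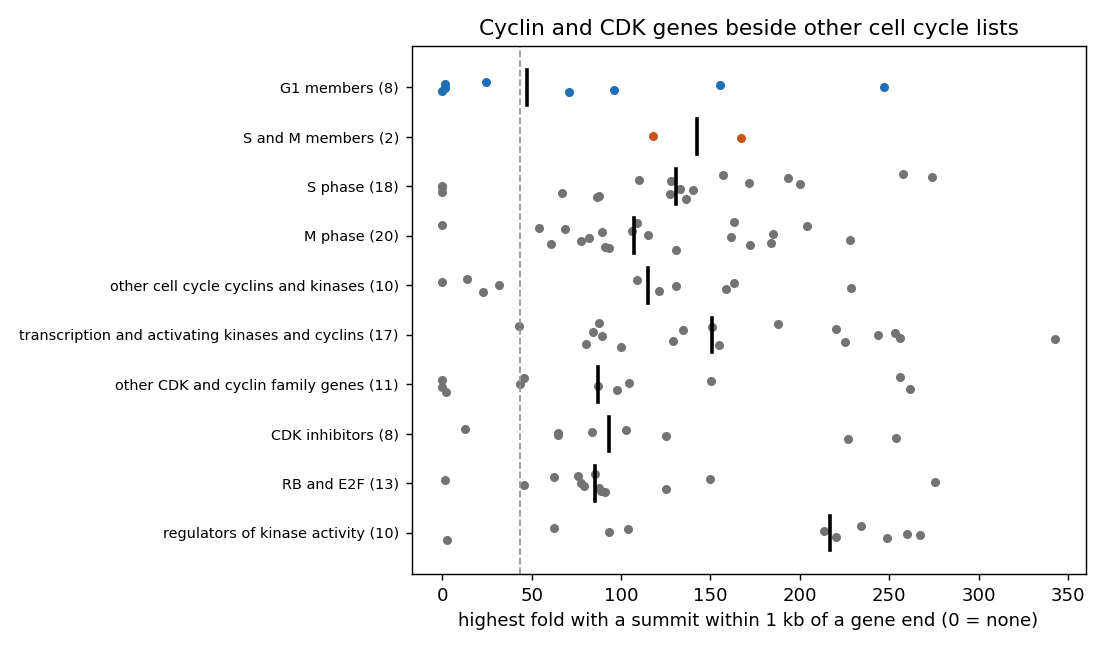
Each point is a gene, placed by the highest fold of a peak with its summit within 1 kb of either end (0 = none); rows are gene lists with their size, black bars are medians and the dashed line is the median of all coding genes (43.5). G1 members spread from 0 to 247 around a median of 47.6, and the list of kinase regulators has the highest median, 217.

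Cyclins and kinases outside the 10 varied as widely. The shares to set them against were 83% of coding genes with a summit at an end and 29.2% at 100-fold or more. Of 10 other cell cycle cyclins and kinases, 9 had a summit and 6 reached 100-fold (median 115). CCNG1 (229) and the mitotic kinase CDK1 (163) were highest, and CCNB3 (none) and the germ line cyclin CCNA1 (13.9) lowest. CDK1, CCNB2 and CCNB3 are in the M phase list too. The 17 kinases and cyclins of transcription and CDK activation all had a summit, with a median of 151 and 11 at 100-fold or more; CCNK (343) and CDK13 (256) led, and MNAT1 (43.03) and CDK10 (80.4) were lowest. Among 11 further family genes 9 had a summit and 4 reached 100-fold (median 87.1), with CCNYL1 (262) and CDK5 (256) high. CDK15 and CCNY had no summit at an end but peaks of 31.5 and 71.2-fold inside.

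CDK inhibitors, retinoblastoma and E2F genes and other regulators of kinase activity were read against the same shares of coding genes. These were 83% with a summit at an end and 29.2% at 100-fold or more. All 8 CDK inhibitors had a summit and 4 reached 100-fold (median 93.1), from CDKN1A at 12.6, the p53 target p21, and CDKN2A at 64.7 to CDKN3 at 227 and CDKN2D at 254. All 13 retinoblastoma and E2F genes had one and 3 reached 100-fold (median 85.2), with E2F3 (275) and E2F1 (149.9) highest and E2F2 (1.71) and E2F5 (45.8) lowest. The 10 regulators of kinase activity had a median of 217 and 7 at 100-fold or more. They were led by CKS2 (267) and CKS1B (260), small CDK-binding proteins, and the phosphatases CDC25B (62.7) and CDC14A (2.42) were lowest. Of the genes named here as low, CDKN1A, E2F2, CDC25B and CDC14A had higher peaks inside (119, 36.6, 73.9 and 135-fold), and CDKN2A and E2F5 did not.

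Markers of the labelled cell type were checked in the same way. Of 8 blood progenitor genes 6 had a summit at an end, against 83% of coding genes, and the median of the 8 at ends, 22.8, was below the 43.5 of all coding genes. By the highest peak over the whole gene their median was 81.3, against 63.4 for all coding genes. PTPRC, CD34, SPN and RUNX1 had higher peaks inside than at an end, of 103, 44.9, 118 and 113-fold. At ends, SPI1 (109), RUNX1 (80.9) and KIT (59.8) stood above 43.5, and PTPRC (30.9), CD34 (14.8) and SPN (3.93) below it. GATA2 and TAL1 had no summit at an end but lay wholly under peaks (100% covered). GATA2 had a 54.9-fold peak inside. TAL1 had no summit inside either, so it counted as 0 in the median of 81.3. The pluripotency genes POU5F1 (1.93), NANOG (2.42) and SOX2 (17.6) were low. Of the erythroid genes HBG2 had 37.8, and of the endothelial genes PECAM1 had 82.9 and KDR 28.4. The liver genes ALB and AHSG had no summit at an end, although AHSG had a 53.9-fold peak inside it. The part of any other cell type in the members' peaks was not tested.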

How the data were processed

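Per the labels' protocols, each library started from 50000 cells, the transposase acted for 45 minutes, and reads were paired and 75 nucleotides long. The submitters' processing notes list GRCh38.p13, hg38, Bowtie2 2.2.8, Trim Galore 0.6.5 and Picard 2.2.4; the deposited peak names carry MACS 2.1.0 and GENCODE 36. Filters, any read shift for the transposase and the libraries pooled are not given in the sources used here. The deposited list gives each peak a score, a fold (ratio over background) and a −log10 p-value, all by the authors; score and p rank peaks as fold does (Spearman correlation 1). Depth per library is unknown. Fold and p imply a background of 93.5 overlapping reads or fragments, with 100% of pileups under 1000 whole to within 0.1, and exact Poisson 95% intervals of the pileup cover counting error only. A constant background does not correct for copy number or mappability.

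Genes on chromosomes 1 to 22 and X came from RefSeq (GRCh38.p14, whose chromosome coordinates equal those of p13). It holds no exons, so a position is given as inside or outside a gene. Strand came from the promoter table, and for 4 members (CCND1, CCND2, CCNE2 and CDK2) from general knowledge. Members and lists were chosen with earlier results of these data known. Named are all members with their end peaks, highest inner, widest and 3 highest distal peaks, and the 2 highest and 2 lowest genes of each list; other peaks and CDK7 were chosen after their values were seen. No test was made. The counting was tested on simulated data. Python 3.11.15, numpy 2.4.6, pandas 2.3.3, scipy 1.17.1 and matplotlib 3.10.9 were used.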

Additional observations from a re-analysis of the deposited data

How the results depend on the processing

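No paired analysis was possible because the peak list has no value for any library, and no library could be left out for the same reason. A median, count or difference was taken as kept when it stayed within 1.5 times. The median highest fold at member ends was 47.6 with a 0.5 kb window, in place of 83.5; it was kept with the more significant 50% of the peaks, a 2.5 kb window, any overlap, the start only and, added after seeing the data, the highest peak over the whole gene. The number of members at 100-fold or more was 3 to 6 under all 6 of these. G1 minus S and M members stayed negative throughout, at -38.5 with a 2.5 kb window, -38.5 with any overlap and -58.4 over the whole gene. Against the S phase list it was -26.7 with 2.5 kb, -26.8 with any overlap and -50.6 over the whole gene, and against the M phase list -94.3 with 0.5 kb, -3.46 with 2.5 kb, -3.46 with any overlap and -23.3 over the whole gene. CCND2 and CDK6 were at 0 with the start only. The G1 median of highest distal values was 73.03 in place of 90.4 without peaks that overlap the gene, a setting added after seeing the data.

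The members' median of distal summits was 12.5 with the more significant 50% of the peaks, 14 within 50 kb, 57 within 200 kb and 10.5 at 5-fold or more. G1 minus S and M members was 17.5 within 200 kb. Against the S phase list the difference was -2.5 with the more significant 50% of the peaks, -3.5 within 50 kb, -6 with neighbours' ends counted and -0.5 at 5-fold or more. Against the M phase list it was -1, -2 and -0.5 under the first 3 of these and turned to 1 at 5-fold or more; the cause was not tested. Fewer peaks or another distance change such counts by construction. Since the depth of single libraries is unknown, its effect on the weak peaks could not be computed.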
